A study of Mus musculus with 12 samples.

Results

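The levels of 10 nuclear receptor genes of the intestinal epithelium were followed across 12 RNA-seq libraries of mouse small intestinal organoids. They are Ppara, Ppard, Pparg, Nr1h4, Vdr, Nr1i2, Nr1i3, Rxra, Rara and Nr5a2. The genes are the entries that carry these symbols in both deposited tables of raw counts. This rule uses no measured value, but the symbols were picked with earlier results of these data known. All 10 were found among the 55335 entries of each table, and all 10 passed the filter on low counts in both. The mouse nuclear receptor superfamily, as listed for this work, has 49 genes, so 39 others stood beside them.

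Nuclear receptors are transcription factors that bind DNA through zinc fingers and change their activity when a small fat-soluble molecule fills a pocket in the protein. In the gut they read what the epithelium meets: fatty acids (the PPARs), bile acids (FXR, encoded by Nr1h4), drugs and other foreign compounds (PXR and CAR, encoded by Nr1i2 and Nr1i3), vitamin D (Vdr) and the vitamin A product retinoic acid (Rara). Most of them bind DNA as a pair with a retinoid X receptor such as the product of Rxra, while LRH-1, encoded by Nr5a2, binds as a monomer and takes part in crypt renewal.

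The organoids came from a female mouse that carried Lgr5GFPDTR/+, an allele that marks and allows killing of Lgr5-positive cells, and every group shared this line. The ENR control group (n = 3) was grown for 6 days in ENR medium, named for its factors EGF, Noggin and R-spondin. The RANKL group (n = 3) was kept for 3 days with 3 µM CHIR99021 (which blocks GSK3) and 1.5 mM valproic acid (which blocks histone deacetylases), rested in ENR medium, and then received 100 ng/mL RANKL, the cytokine that induces M cells, for 6 days. The RANKL II group (n = 3) is another RANKL set made for the inhibitor experiment, and the RANKL+CSRM617 group (n = 3) received 40 µM CSRM617 as well, a compound used against the transcription factor ONECUT2. Descriptions of the control libraries carry the prefix CVENR, which no label explains, while their protocol speaks of ENR medium alone. Whether the control cultures also passed through CHIR99021 and valproic acid is therefore not settled by the labels, and RANKL and that step cannot be told apart. Replicates were separate differentiation experiments on 1 line from a single animal, so the p-values do not cover variation between animals.

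Library totals ran from 5795541 to 14041947 counts. Levels are given as CPM, counts per 1000000 of the library total after TMM scaling, and a change is called where the Benjamini-Hochberg adjusted p of edgeR's quasi-likelihood test over all genes of a table is under 0.05. The deposited tables pair ENR control with RANKL and RANKL II with RANKL+CSRM617, and tests were made only within a table. Fold changes followed the GC content of the transcript in both tables, with Spearman's rho across genes of -0.316 over 13383 genes for RANKL and 0.586 over 13964 genes for CSRM617. Values from a fit with offsets that remove this trend in each library are therefore given beside some of the genes called in either fit. Among them are genes whose fold change the offsets moved by over 1.5 times or whose call they changed. Offset values are also given for some of the 10 receptors whose fold change moved less than that and whose call stayed. For changes that passed in neither fit, offset values are mostly not given, though some moved as much. Markers of the epithelium were present in every group, while the defining markers Alb and Serpina1a of hepatocytes, Adipoq and Lep of adipocytes, and Cdh5, Col1a2 and Dcn of stroma and vessels were at 0 counts in all 12 libraries. The remaining hepatocyte marker, Ttr, was counted, with 18.62 to 86.0 CPM for the list. So was the remaining adipocyte marker, Cidec, with 1.49 to 6.108 CPM for its list. Cidec did not pass the test with RANKL and rose by 0.999 on the log2 scale with CSRM617, or by 0.605 with GC offsets. The 5 immune markers summed to at most 9.845 CPM and 6 stromal and vessel markers to at most 3.198 CPM.

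RANKL organoids held less mRNA of 7 of the 10 receptors than ENR control organoids and more of 2. The receptors that fell were Ppara, Vdr, Nr1h4, Nr1i2, Nr1i3, Rxra and Rara, those that rose were Ppard and Pparg, and Nr5a2 did not pass the test. Across all 13570 genes tested, 28.0% were lower and 28.7% were higher, so the 2 that rose are no larger a share than over all genes. The median log2 change was -0.72 for the 10 receptors against 0.003 for all genes. With GC offsets 8 of the 10 were lower, Nr5a2 included, and 2 higher, where 27.0% and 27.1% of all genes were called, and the median of the receptors was -0.61.

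Adding CSRM617 to RANKL went with more mRNA of 7 receptors, Ppara, Ppard, Nr1i2, Nr1i3, Rxra, Rara and Nr5a2, and with less of 1, Pparg. Vdr and Nr1h4 did not pass the test. Of all 14167 genes tested, 35.2% were higher and 36.2% lower, so the 1 that fell is no larger a share than over all genes. The median log2 change was 0.67 for the receptors against -0.02 for all genes. With GC offsets 7 were higher and 2 lower, where 30.1% and 33.5% of all genes were called, and the median of the receptors was 0.39. The count of 1 lower rests on Pparg and fell to 0 with DESeq2, without RANKL II replicate 2 or without RANKL+CSRM617 replicate 2.

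Of the 7 receptors that fell with RANKL, 5 rose with CSRM617: Ppara, Nr1i2, Nr1i3, Rxra and Rara. Of all 3660 genes that fell with RANKL and were tested in both tables, 51.9% rose with CSRM617. With GC offsets the receptors gave 6 of 8, Nr5a2 being added, and all such genes 38.4% of 3527. No library is shared by the comparisons, and the 2 RANKL sets differed in level. Ppara held 9.267 to 10.7 CPM in RANKL and 17.51 to 19.62 CPM in RANKL II. For Nr1i3 it was 7.854 to 10.55 and 32.45 to 33.78 CPM. Nr1i2 and Rxra also stood higher in RANKL II, while Rara overlapped. The tables were scaled apart, and whether RANKL II held less of these receptors than ENR control was not tested.

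Cell type markers moved in the same libraries. The summed CPM of 8 enterocyte markers was 996.3 to 1160 without and 2530 to 3505 with RANKL in the first table, and 3745 to 3804 without and 9297 to 9621 with CSRM617 in the other. That of 5 stem cell markers was 1721 to 2128, 518.5 to 765.9, 136.1 to 140.8 and 145.6 to 149.9, in the same sequence of groups. For 8 M cell markers it was 18.24 to 24.12, 873.6 to 908.7, 988.6 to 1011 and 893.5 to 910.3. For 5 Paneth cell markers it was 505.0 to 864.6, 367.1 to 383.2, 550.1 to 563.7 and 839.7 to 864.6. Of these Paneth markers 4 fell and 1 rose with RANKL (median log2 change -1.996), and 4 rose and 1 fell with CSRM617 (median 1.74). Of the enterocyte markers 6 rose and 2, Fabp1 and Mttp, fell with RANKL. With CSRM617 7 of them rose and 1 fell (8 and 0 with GC offsets). Of the stem cell markers 1, Ascl2, rose and 3 fell with RANKL (1 and 4 with GC offsets). With CSRM617 2 of them rose and 2 fell (2 and 3 with GC offsets). All 8 M cell markers rose with RANKL, while 3 rose and 5 fell with CSRM617. With GC offsets 2 M cell markers rose and 4 fell with CSRM617, and Ccl20 went from -0.38 to 0.34 on the log2 scale. The part of these markers in the receptor results was not tested, and in bulk RNA fewer cells of a type and less RNA per cell cannot be told apart. Ribosomal RNA, counted at Gm26917 and Gm42418, took 21.9% to 35.5% of the total in the ENR control libraries and 9.71% to 10.7% in those with RANKL. In the other table it took 6.44% to 6.71% without CSRM617 and 15.3% to 15.8% with it. Mitochondrial genes took 5.43% to 7.96% in ENR control and 2.52% to 2.89% with RANKL, and 6.04% to 6.11% without and 8.61% to 11.04% with CSRM617. The 10 receptors kept their calls in both tables when these loci and mitochondrial genes were left out.

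**Figure D1:**
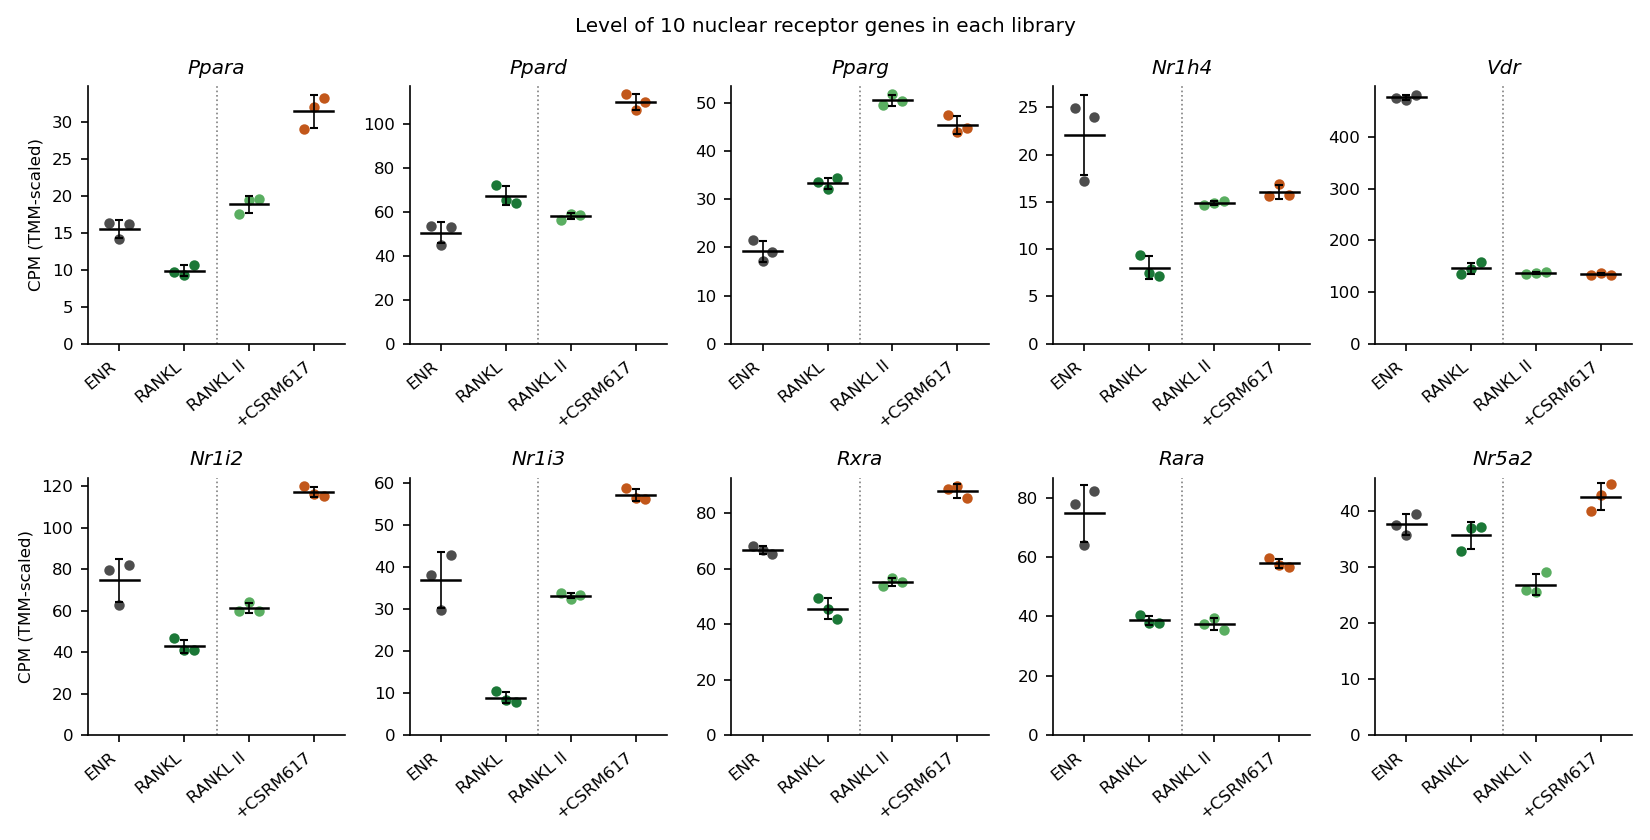
Level of each receptor gene in CPM (y axis, from 0) in the 3 libraries of each group (points), with the group mean (line) and SD (bar). The dotted line divides the 2 tables. All 3 RANKL points lie below all 3 ENR control points for 7 genes. All 3 points with CSRM617 lie above all 3 RANKL II points for Ppara, Ppard, Nr1i2, Nr1i3, Rxra, Rara and Nr5a2. They also do so for Nr1h4, though it did not pass the test. How many of all genes separate in this way was not counted, so whether such separation is uncommon is not known. The share called is another measure. Of all genes tested, 28.0% were called lower with RANKL and 35.2% higher with CSRM617.

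Levels were set per kb of exon to compare genes. No GC offsets enter these levels, their ranks or the family shares given later, though transcripts of the 10 run from 43.25% to 59.19% GC. By this measure Vdr stood highest in ENR control at 84.28 ± 0.795 CPM per kb (SD, n = 3). Nr1i2 at 29.25 ± 4.07, Rara at 17.12 ± 2.19 and Rxra at 12.2 ± 0.239 followed, each apart from the next in all 3 libraries. Nr1h4 (9.574 ± 1.84), Nr1i3 (8.369 ± 1.5), Ppard (6.726 ± 0.634), Pparg (6.509 ± 0.734) and Nr5a2 (6.386 ± 0.312) overlapped as neighbours in that order, and Ppara was lowest at 4.055 ± 0.323. In RANKL libraries Vdr (25.74 ± 2.02) and Nr1i2 (16.77 ± 1.28) still led, Pparg (11.29 ± 0.394) came next and Nr1i3 (2.03 ± 0.32) last. In RANKL II Vdr (24.19 ± 0.341) and Nr1i2 (23.95 ± 0.961) overlapped at the top and Nr5a2 (4.556 ± 0.325) was last. With CSRM617 Nr1i2 led at 45.93 ± 0.977, above Vdr at 23.68 ± 0.352 in all 3 libraries, and Nr1h4 was last at 6.984 ± 0.324, overlapping its neighbour Nr5a2 at 7.228 ± 0.407.

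Most of these receptors recognise copies of a hexamer, here the sequence AGGTCA or its close variants GGGTCA and also AGTTCA and also GGTTCA, whose spacing and direction set which pair binds. RefSeq promoter windows of GRCm38.p6, 250 bases before to 50 after a start, were found for all 10 receptors (17 windows) and searched on both strands. The search covered direct repeats of the hexamer with 1 to 5 bases between, an inverted repeat with 1 base between, an everted repeat with 6 between, and the LRH-1 type sequences CCAAGGCCA, CCAAGGTCA, TCAAGGCCA and TCAAGGTCA, of which those that end in the first hexamer overlap with it. None of the 10 receptors had such an element in a window, and starts outside these windows were not searched. Of all 32851 windows, 0.22% held the repeat with 1 base between, 0.27% that with 2, 0.04% with 3, 0.08% with 4 and 0.10% with 5. The inverted repeat was in 0.04%, the everted repeat in 0.03% and an LRH-1 type sequence in 2.22%. A lone hexamer was in 8 of the 17 receptor windows, from 6 of the genes, and in 43.7% of all windows.

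The 250 bases before the start are printed, 5' to 3' on the strand of the gene, for Nr1i3, Vdr and Nr1h4, which fell the most with RANKL, for Nr1i2, which rose the most with CSRM617 without offsets, and for 2 of the target genes whose window holds an element. Others with an element, such as Fabp6 and Cyp26a1, are not printed. Capitals mark the hexamer on either strand and the elements named here. Vdr (chr15:97908297-97908546, minus strand) and Nr1h4 (chr10:89506659-89506908, minus) each have 1 hexamer. Both windows belong to starts inside the annotated gene, whose 5' end is at 97910630 for Vdr and at 89533585 for Nr1h4. The bases before those 5' ends were not searched. Nr1i2 (chr16:38294825-38295074, minus) and Nr1i3 (chr1:171213720-171213969, plus) have none in these 250 bases. Slc51a (chr16:32487880-32488129, minus) has CCAAGGCCA starting 137 bases before the start. That element is of the LRH-1 type, though Slc51a is listed here as an FXR target. The inverted repeat with 1 base between was in 0 of 7 windows of FXR targets. Rarb (chr14:16575477-16575726, minus) has the direct repeat with 5 bases between, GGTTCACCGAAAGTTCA, starting 53 bases before its start, the textbook retinoic acid response element.
Vdr: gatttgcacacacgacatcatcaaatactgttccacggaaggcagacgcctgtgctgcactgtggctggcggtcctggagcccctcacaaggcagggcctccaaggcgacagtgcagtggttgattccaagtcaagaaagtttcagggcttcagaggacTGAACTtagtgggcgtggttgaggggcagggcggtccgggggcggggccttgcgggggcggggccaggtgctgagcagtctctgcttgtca
Nr1h4: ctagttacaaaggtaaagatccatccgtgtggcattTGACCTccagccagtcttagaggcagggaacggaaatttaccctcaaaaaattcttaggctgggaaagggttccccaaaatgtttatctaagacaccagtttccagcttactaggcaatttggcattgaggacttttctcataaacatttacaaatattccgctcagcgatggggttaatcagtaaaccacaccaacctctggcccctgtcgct
Nr1i2: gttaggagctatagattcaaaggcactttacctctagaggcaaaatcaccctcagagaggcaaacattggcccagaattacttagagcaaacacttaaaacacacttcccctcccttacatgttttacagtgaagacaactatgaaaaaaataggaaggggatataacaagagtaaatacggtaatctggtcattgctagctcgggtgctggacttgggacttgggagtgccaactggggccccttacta
Nr1i3: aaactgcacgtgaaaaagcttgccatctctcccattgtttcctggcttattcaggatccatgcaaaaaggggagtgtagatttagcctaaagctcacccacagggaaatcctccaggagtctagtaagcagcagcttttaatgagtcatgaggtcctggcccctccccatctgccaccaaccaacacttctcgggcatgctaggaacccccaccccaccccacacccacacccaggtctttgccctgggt
Slc51a: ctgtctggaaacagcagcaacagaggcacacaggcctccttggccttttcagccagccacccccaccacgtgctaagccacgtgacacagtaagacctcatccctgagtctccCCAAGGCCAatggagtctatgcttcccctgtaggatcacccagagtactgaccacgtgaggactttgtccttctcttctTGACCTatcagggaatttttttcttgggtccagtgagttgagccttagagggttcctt
Rarb: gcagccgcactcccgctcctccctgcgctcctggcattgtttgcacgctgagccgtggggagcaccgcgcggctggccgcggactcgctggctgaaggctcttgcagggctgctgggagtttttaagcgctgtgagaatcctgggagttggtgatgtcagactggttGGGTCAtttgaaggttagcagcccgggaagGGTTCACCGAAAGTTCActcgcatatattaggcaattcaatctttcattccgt

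The 3 PPARs are receptors for fatty acids and their products. Ppara, which drives fatty acid oxidation and ketone body synthesis (chromosome 15, 85734983 to 85802819, plus strand, GRCm38), stood at 16.32, 14.13 and 16.22 CPM in ENR control libraries 1 to 3 and at 9.652, 9.267 and 10.7 CPM with RANKL. It fell in all 3 RANKL libraries, by 0.65 on the log2 scale (SE 0.144, adjusted p = 0.00121). In RANKL II it stood at 17.51, 19.47 and 19.62 CPM and with CSRM617 at 29.0, 32.01 and 33.32 CPM. These groups did not overlap either, and the log2 change was 0.74 (SE 0.0785, adjusted p = 2.54e-11), or 0.55 with GC offsets.

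Ppard, the most broadly expressed PPAR (chromosome 17, 28232700 to 28301474, plus strand), gave 53.57, 45.05 and 53.01 CPM in ENR control and 72.39, 65.66 and 64.32 CPM with RANKL. It rose in all 3, by 0.43 on the log2 scale (SE 0.0972, adjusted p = 0.0015). Its RANKL II libraries held 56.47, 59.14 and 58.7 CPM and those with CSRM617 held 114.0, 106.5 and 110.2 CPM. That change of 0.92 (SE 0.0465, adjusted p = 9.48e-22; 0.70 with GC offsets) makes Ppard the only receptor of the 10 that rose in both comparisons.

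Pparg, best known from fat cells and also present in enterocytes (chromosome 6, 115360951 to 115490399, plus strand), went from 21.5, 17.19 and 18.97 CPM in ENR control to 33.56, 32.1 and 34.4 CPM with RANKL. The groups were apart, with a log2 change of 0.80 (SE 0.116, adjusted p = 2.64e-05). RANKL II libraries held 49.53, 51.82 and 50.53 CPM and CSRM617 libraries 47.6, 43.9 and 44.93 CPM. The groups did not overlap, and the fall by 0.16 on the log2 scale (SE 0.0575, adjusted p = 0.013) did not pass with DESeq2 (-0.15, adjusted p = 0.13), without RANKL II replicate 2 (adjusted p = 0.0557) or without RANKL+CSRM617 replicate 2 (adjusted p = 0.095). With GC offsets it was -0.28.

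The make-up of the family differed between groups. Per kb of exon, Ppara was 23.5% ± 0.599 of the summed PPAR level in ENR control and 11.3% ± 0.757 with RANKL, while Pparg went from 37.6% ± 1.37 to 49.4% ± 1.17 (SD, n = 3). In RANKL II Ppard was 26.0% ± 0.13 and Pparg 57.5% ± 0.584, against 38.3% ± 0.632 and 40.2% ± 1.09 with CSRM617. In each of these 4 pairs the libraries of the groups did not overlap. An exact permutation test of 3 against 3 libraries cannot go below p = 0.1, so the shares are given as a description.

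**Figure D2:**
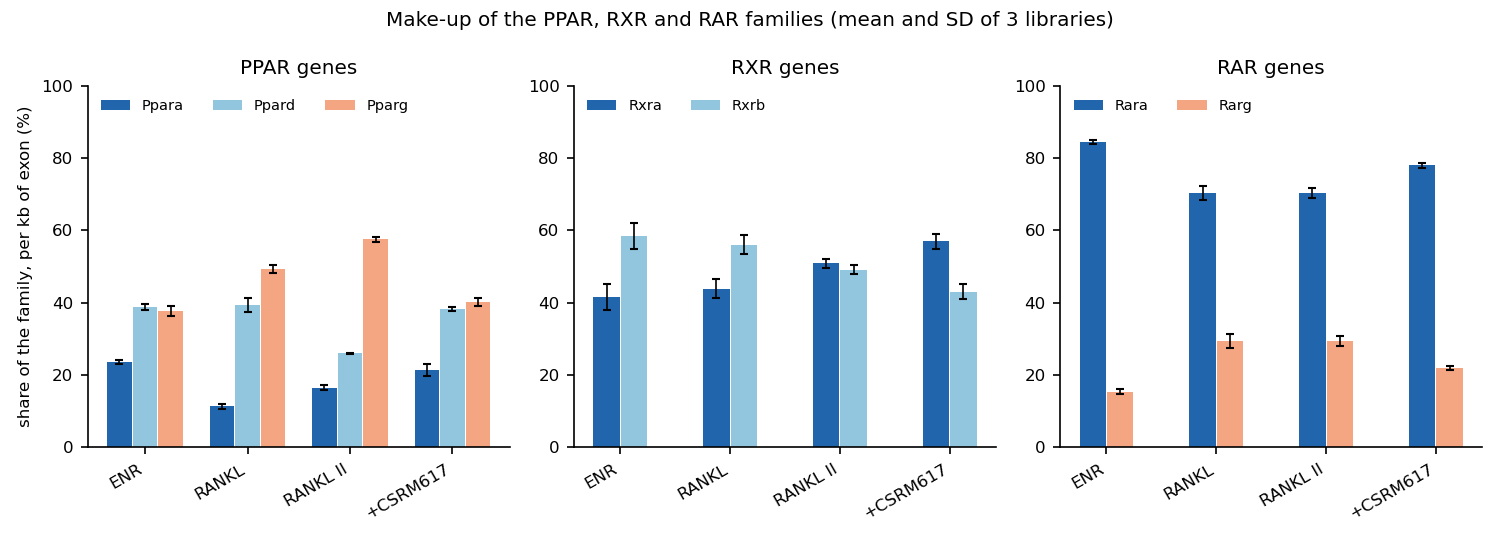
Share of each gene in the summed level of its family per kb of exon, without GC offsets (y axis, %). Bars give the mean and whiskers the SD of 3 libraries per group. Pparg takes the largest share of the PPARs in RANKL (49.4%) and RANKL II (57.5%), and Rara stays above 70% of the RARs in every group mean; Rxrg had 0 counts and Rarb under 1%, so neither is drawn.

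PPAR target genes, of which 25 were listed, moved in both directions. With RANKL 6 rose and 8 fell of 19 tested (8 and 6 with GC offsets), and with CSRM617 13 rose and 5 fell of 20. For this list and those that follow, the shares to set beside the counts are those over all genes. They were 28.7% higher and 28.0% lower with RANKL, and 35.2% and 36.2% with CSRM617. Creb3l3, a liver and gut transcription factor of lipid metabolism, rose by 1.99 with CSRM617, Crat, a carnitine acetyltransferase, by 1.42 and Ucp2, a mitochondrial carrier, by 0.66, or 0.32 with GC offsets. With RANKL Acot1, a fatty acyl-CoA thioesterase, fell by 1.91 and Fabp1, a fatty acid binding protein, by 1.64, while Slc25a20, the mitochondrial carnitine carrier, rose by 0.80. Pdk4 and Cyp4a14, textbook PPAR targets, had 0 counts in all 12 libraries.

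Nr1h4 encodes FXR, the bile acid receptor (chromosome 10, 89454234 to 89533585, minus strand). Its level was 24.96, 17.19 and 23.99 CPM in ENR control and 9.428, 7.459 and 7.177 CPM with RANKL. Every RANKL library lay below every control library, and the fall was 1.43 on the log2 scale (SE 0.172, adjusted p = 4.08e-06). RANKL II and CSRM617 libraries stood close together, at 14.71, 14.84 and 15.06 CPM and at 15.58, 16.94 and 15.73 CPM. Although these did not overlap, the log2 change of 0.12 (SE 0.0937, 95% interval -0.07 to 0.30) did not pass the test (adjusted p = 0.271).

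FXR target genes were few and low. Slc51a, which encodes a subunit of the exporter that moves bile acids to the blood side of enterocytes and whose promoter is printed with that of Nr1h4, rose from 3.088 ± 0.713 to 8.841 ± 1.63 CPM with RANKL (log2 change 1.49, SE 0.232, adjusted p = 5.17e-05), where Nr1h4 fell. It rose again from 17.57 ± 1.3 to 37.31 ± 2.01 CPM with CSRM617 (1.08, SE 0.0766, adjusted p = 1.07e-16). Slc51b, the partner subunit, had 3 counts in the whole ENR control group and 39 with RANKL, a ratio of 8.83 (exact 95% binomial interval 2.81 to 44.6, counting error only), and rose by 1.13 with CSRM617. Slc10a2, the bile acid importer of the ileum, was at 0 counts in all ENR control libraries and at 55 in those with RANKL, at least 12.4-fold higher when the 0 is set at 3 counts for the whole group. With CSRM617 its log2 change was -0.77 (SE 0.275, adjusted p = 0.0116), but 0.25 and not passed with GC offsets. Fgf15, the hormone that ileal FXR induces, was at 4.414 ± 2.53 and 3.926 ± 1.97 CPM in ENR control and RANKL, a difference that did not pass (-0.10, adjusted p = 0.86), and fell by 1.13 (SE 0.242, adjusted p = 6.38e-05) with CSRM617. Nr0b2, which encodes the corepressor SHP, had 3 counts in ENR control and 0 in the other 3 groups, which allows no fold, and Fabp6, a bile acid carrier, was too low to be tested. Of the 8 listed, 3 rose and none fell of 4 tested with RANKL, and 2 rose and 2 fell of 5 with CSRM617.

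Nr1i2 and Nr1i3 encode PXR and CAR, the sensors of drugs and other foreign compounds. Nr1i2 (chromosome 16, 38248323 to 38294824, minus strand) stood at 79.49, 62.77 and 81.8 CPM in ENR control and at 46.58, 40.8 and 41.03 CPM with RANKL. It fell in all 3, by 0.79 on the log2 scale (SE 0.11, adjusted p = 1.68e-05). RANKL II held 59.58, 63.98 and 59.9 CPM against 120.1, 116.2 and 115.4 CPM with CSRM617. That rise of 0.94 (SE 0.0453, adjusted p = 1.9e-22; 0.67 with GC offsets) was the largest of the 10 in this table without offsets.

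Nr1i3 (chromosome 1, 171213970 to 171220701, plus strand) had the largest fall with RANKL, from 38.01, 29.85 and 42.96 CPM to 10.55, 8.476 and 7.854 CPM. The groups lay far apart, with a log2 change of -2.02 (SE 0.158, adjusted p = 3.06e-08). RANKL II libraries held 33.78, 32.45 and 33.4 CPM and CSRM617 libraries 58.75, 56.52 and 56.23 CPM. It rose there by 0.78 (SE 0.0592, adjusted p = 1.03e-15; 0.52 with GC offsets). Of the 4414 exon bases of Nr1i3, 3304 are also exon of Tomm40l on the opposite strand. No source used here states whether the counting used strand, so how reads in the shared bases were counted is not known. The levels of both genes may depend on it. Per-kb values of Nr1i3, its rank among the receptors included, divide by all 4414 bases and share this limit. Tomm40l was at 27.8 ± 3.12 CPM without and 19.56 ± 2.54 CPM with RANKL (log2 change -0.51, SE 0.129), and at 17.93 ± 1.96 and 20.66 ± 1.28 CPM without and with CSRM617 (0.22, and -0.002 and not passed with GC offsets). Per kb, Nr1i2 was 77.8% ± 0.97 of the sum of the pair without and 89.2% ± 0.81 with RANKL, and 76.1% ± 1.08 without and 78.0% ± 0.0547 with CSRM617.

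All 17 listed PXR and CAR targets were tested, of which 5 rose and 6 fell with RANKL and 10 rose and 4 fell with CSRM617. Ces2a, a carboxylesterase that cleaves drugs, went from 696.7 ± 30.6 to 125.7 ± 24.5 CPM with RANKL (log2 change -2.47, SE 0.115, adjusted p = 7.21e-11) and fell further with CSRM617 (-0.85), where Nr1i2 and Nr1i3 rose. Cyp2c55, a cytochrome P450, went from 253.5 ± 8.47 to 72.52 ± 5.89 CPM with CSRM617 (-1.80, SE 0.042, adjusted p = 6.81e-32). Cyp3a11, the drug-metabolising P450 by which PXR activity is usually read, fell by 1.27 with RANKL and rose by 1.19 with CSRM617, from 2.004 ± 0.424 to 4.646 ± 0.921 CPM. Cyp2b10, the usual CAR target, stood at 13.59 ± 1.65 and 13.22 ± 1.66 CPM in ENR control and RANKL, which did not pass (adjusted p = 0.831), and rose by 0.97 (SE 0.0893) with CSRM617. Abcb1a, a drug exporter, did not pass with RANKL (-0.07) and was called at -0.08 with CSRM617, or 0.11 and called higher with GC offsets. Cyp3a13 rose by 1.08 with RANKL, while Cyp2c65 and the glutathione transferase Gstm1 fell by 1.18 and 1.07. Abcc2, an exporter of conjugates, rose by 0.53 and Por, the electron donor of P450 enzymes, by 0.65 with CSRM617, the latter by 0.19 with GC offsets.

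Vdr, the vitamin D receptor (chromosome 15, 97854425 to 97910630, minus strand), was the most abundant of the 10 in ENR control, with 476.0, 471.8 and 480.8 CPM. With RANKL its libraries held 134.5, 144.5 and 157.2 CPM. This was a 3.28-fold lower level, and the log2 change was -1.71 (SE 0.082, adjusted p = 9.95e-11). RANKL II libraries held 134.7, 136.7 and 138.5 CPM and CSRM617 libraries 132.9, 136.1 and 132.5 CPM. Those groups overlapped, and the log2 change of -0.03 (95% interval -0.10 to 0.04, adjusted p = 0.461) did not pass; with GC offsets it was -0.26 and passed (adjusted p = 3.12e-12).

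Genes that vitamin D controls in the gut divided. S100g, the calcium-binding protein calbindin-D9k, went from 12.51 ± 0.548 to 1.7 ± 1.09 CPM with RANKL (log2 change -2.92, SE 0.289, adjusted p = 4.34e-07). Cldn2, a claudin that forms cation channels between cells, went from 265.9 ± 36.5 to 67.91 ± 3.85 CPM (-1.97, SE 0.101). Slc30a10, a manganese exporter, rose by 1.81 and Atp2b1, a calcium pump, by 0.83. With CSRM617 S100g fell by 0.96, Cldn2 by 0.60 and Cldn12 by 0.95, while Slc30a10 rose by 0.75. The change of Vdr there did not pass the test, but passed with GC offsets (-0.26). Any link of these genes to the level of Vdr was not tested. Of 11 listed, 6 were tested, and 2 rose and 3 fell with RANKL and 3 rose and 3 fell with CSRM617. Cyp24a1, the enzyme that degrades active vitamin D and its most responsive target, had 0 counts in all 12 libraries, and Trpv6, the calcium channel of the brush border, was too low to be tested.

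Rxra encodes the retinoid X receptor that pairs with most of the others (chromosome 2, 27676440 to 27762957, plus strand). It stood at 67.97, 66.64 and 65.35 CPM in ENR control and at 49.27, 45.55 and 41.71 CPM with RANKL. The fall in all 3 libraries was 0.55 on the log2 scale (SE 0.0918, adjusted p = 0.000106; -0.35 with GC offsets). RANKL II held 53.57, 56.66 and 55.34 CPM and CSRM617 88.72, 89.91 and 85.27 CPM. The groups were apart and the rise was 0.67 (SE 0.0493, adjusted p = 3.46e-16), but 0.26 with GC offsets (adjusted p = 5.32e-07). Rxrb, its paralog, fell by 0.68 with RANKL, or by 0.34 with GC offsets, and was 0.32 higher with CSRM617, or 0.24 lower (-0.24) with GC offsets, and Rxrg had 0 counts. Rxra made 41.6% ± 3.62 of the RXR level per kb without and 43.9% ± 2.6 with RANKL, and 50.9% ± 1.23 without and 57.0% ± 2.1 with CSRM617.

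Rara, a receptor for retinoic acid (chromosome 11, 98927818 to 98974942, plus strand), stood at 77.95, 63.97 and 82.26 CPM in ENR control and at 40.52, 37.63 and 37.78 CPM with RANKL. Every RANKL library was lower, by 0.94 on the log2 scale (SE 0.104, adjusted p = 1.6e-06; -0.68 with GC offsets). RANKL II held 37.3, 39.46 and 35.32 CPM and CSRM617 59.5, 57.17 and 56.71 CPM. The rise of 0.63 (SE 0.0591, adjusted p = 6.84e-13) shrank to 0.15 with GC offsets (adjusted p = 0.0214). Rara transcripts have 59.19% GC, the highest of the 10. Per kb Rara made 84.4% ± 0.538 of the RAR level without and 70.3% ± 1.92 with RANKL, and 70.4% ± 1.47 without and 78.0% ± 0.723 with CSRM617, most of the rest being Rarg, which passed the test in neither table (0.25 and 0.07) but with GC offsets was higher with RANKL (0.49) and lower with CSRM617 (-0.41).

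Stra6, Rdh10, Dhrs3 and Rbp2, genes of retinoid uptake and metabolism, changed in both comparisons. Stra6, which brings retinol into cells, had 3 counts in the ENR control group and 1328 with RANKL, a ratio of 301 (exact 95% binomial interval 103 to 1460, counting error only), and went from 61.08 ± 3.29 in RANKL II to 15.02 ± 0.122 CPM with CSRM617 (log2 change -2.02, SE 0.0701, adjusted p = 1.06e-27). Rdh10, which makes retinaldehyde from retinol, rose by 1.11 (SE 0.11) with RANKL and fell by 0.99 (SE 0.041) with CSRM617. Dhrs3, which turns retinaldehyde back, rose by 0.65 and fell by 0.35 (0.59 with GC offsets), so that these 3 genes and Rara each moved 1 way with RANKL and the other way with CSRM617, Rara in the opposite sense. Rbp2, the retinol carrier of enterocytes, fell by 1.30 with RANKL and went from 6.865 ± 0.232 to 42.87 ± 1.93 CPM (2.65) with CSRM617. Aldh1a1, which makes retinoic acid, did not pass with RANKL (0.02) and went from 15.41 ± 2.04 to 56.71 ± 2.64 CPM (1.87) with CSRM617. Rarb, whose promoter carries the response element printed here, had 3 to 7 counts per group and was not tested. Tgm2, a transglutaminase, fell by 1.62 with RANKL and did not pass with CSRM617 (0.01), though it was lower there with GC offsets (-0.41). Isx, a gut homeobox gene that represses vitamin A uptake, did not pass with RANKL (-0.17) and rose by 0.52 with CSRM617. Cyp26b1, which degrades retinoic acid, did not pass with RANKL (0.27) and rose by 0.45 with CSRM617, or 0.05 and not passed with GC offsets. Of 12 listed RAR targets, 2 rose and 1 fell of 5 tested with RANKL, and 2 rose and 2 fell of 6 with CSRM617.

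Nr5a2, which encodes LRH-1 (chromosome 1, 136842571 to 136960448, minus strand), gave 37.63, 35.85 and 39.53 CPM in ENR control and 32.89, 36.96 and 37.24 CPM with RANKL. The groups overlapped, and the log2 change of -0.07 (95% interval -0.27 to 0.13) did not pass (adjusted p = 0.558), whereas with GC offsets it was -0.25 (adjusted p = 0.0461). In RANKL II it held 26.01, 25.55 and 29.07 CPM and with CSRM617 40.14, 42.84 and 44.93 CPM. It rose there by 0.66 (SE 0.0685, adjusted p = 1.18e-11), and by 1.00 with GC offsets, the largest of the 10 in that fit. Its transcripts have 43.25% GC, the lowest of the 10.

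LRH-1 targets gave 4 higher and 1 lower of 7 tested with RANKL and 2 higher and 2 lower of 6 with CSRM617, of 11 listed. Smarcd3, a chromatin remodelling subunit, rose by 2.61 and Apoa1, the main protein of HDL, by 1.88 with RANKL. Ccnd1, cyclin D1, rose by 0.78 with RANKL and fell by 0.28 with CSRM617, or by 0.44 with GC offsets, while Scarb1, the HDL receptor, fell by 0.97 with RANKL. Apoa1 rose by 1.33 and Ccne1, cyclin E1, by 1.13 with CSRM617. Cyp11a1, the first enzyme of steroid synthesis, did not pass with RANKL (-0.18) and was too low to be tested with CSRM617. The genes of a list overlap with other lists in part: Apoa1 is also an enterocyte marker, Cyp3a11 is listed for VDR as well as for PXR, and Slc10a2 is listed for FXR and LRH-1.

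**Figure D3:**
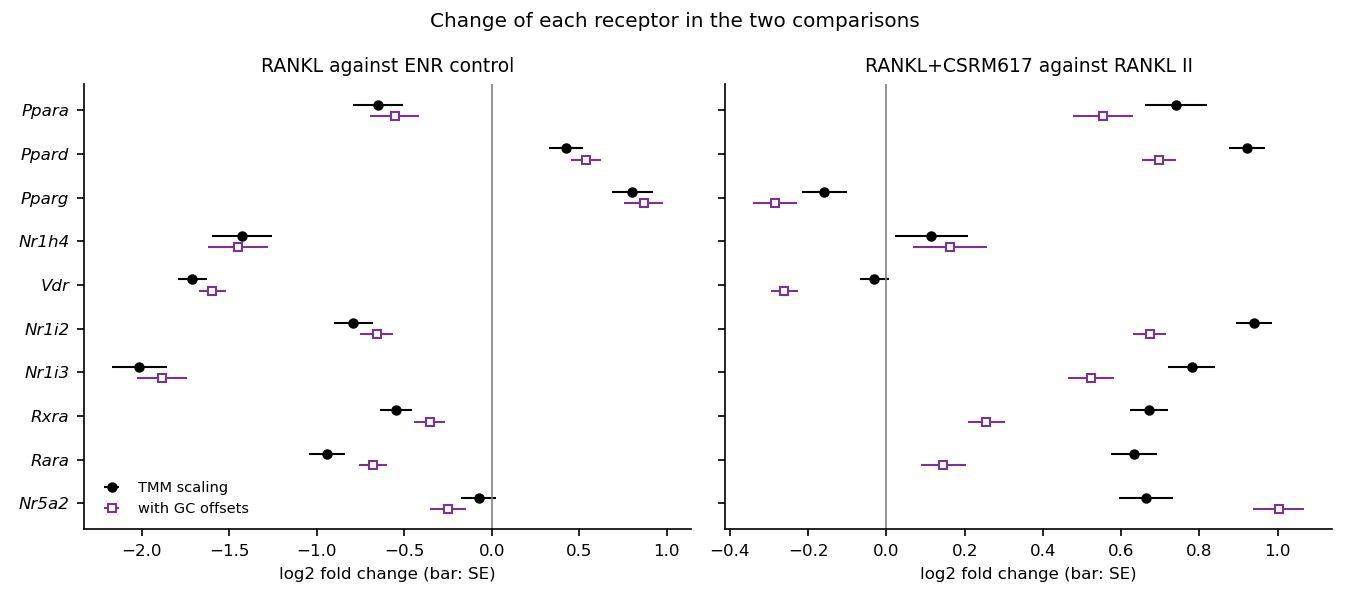
Log2 fold change of the 10 receptors (x axis; points, with SE as bars) in each comparison, from TMM-scaled counts (filled circles) and with GC offsets (open squares). Offsets leave every direction as it was; with CSRM617 they take Rara from 0.63 to 0.15 and Rxra from 0.67 to 0.26, and raise Nr5a2 from 0.66 to 1.00.

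**Figure D4:**
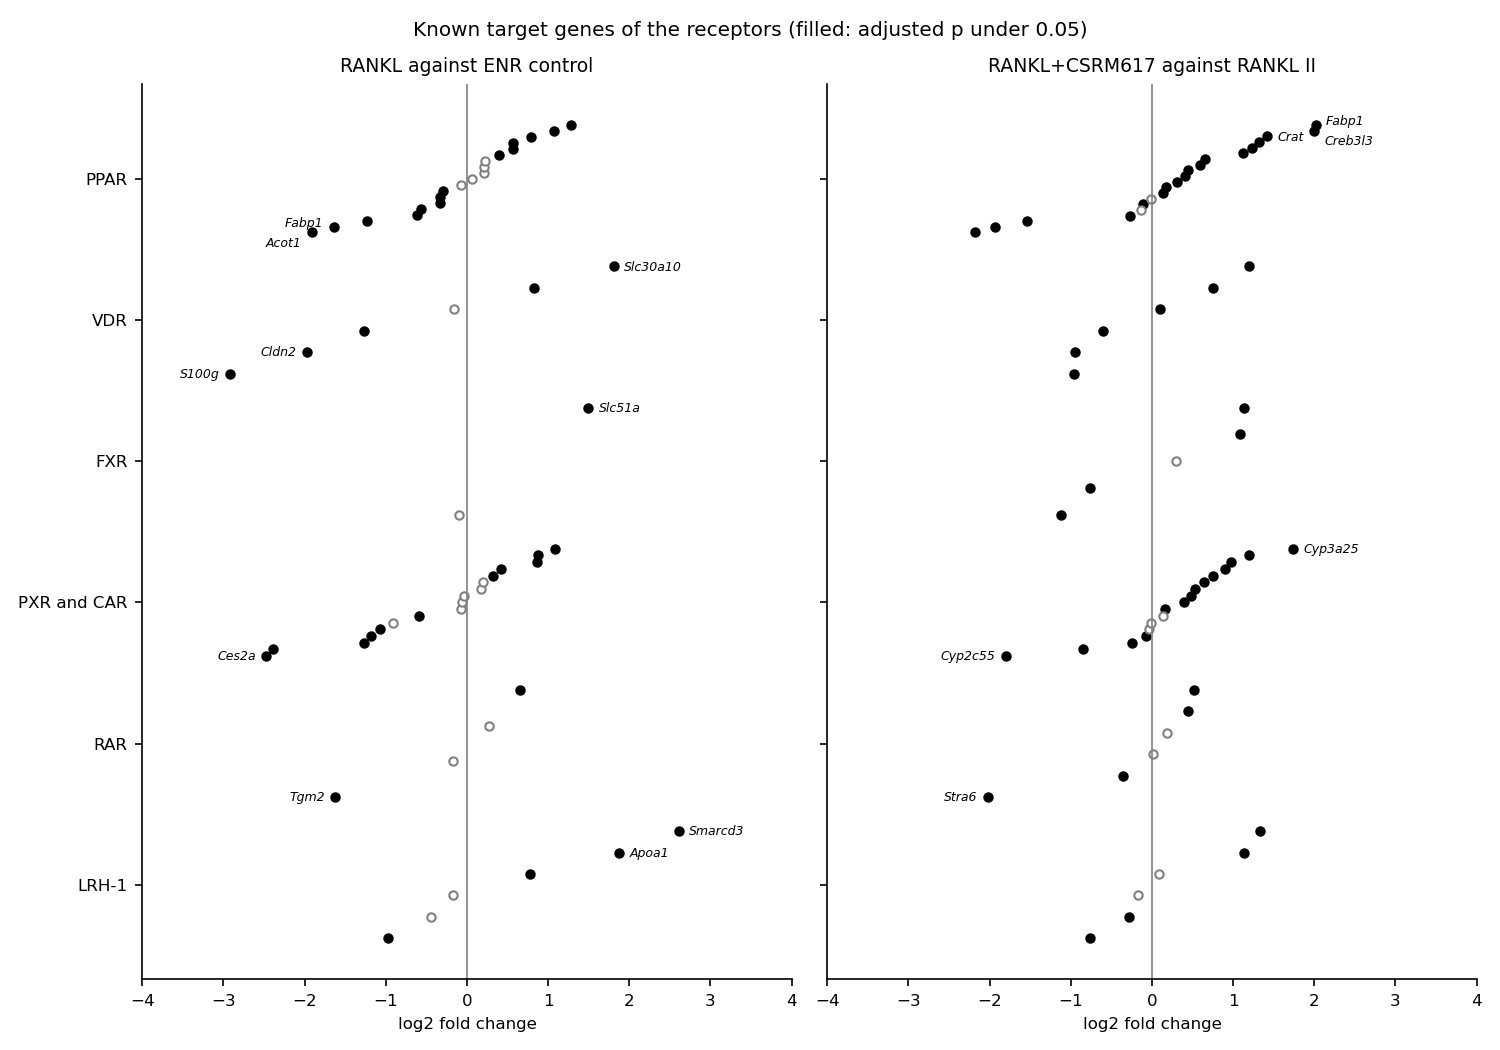
Log2 fold change (x axis) of the tested target genes of each receptor, 1 point a gene, ordered by value within a list; filled points passed the test and open points did not. Genes with 3 or fewer counts in a group, such as Stra6 and Slc10a2 in the left panel, are not drawn. Each list holds points on both sides of 0 in both panels, such as S100g at -2.92 and Slc30a10 at 1.81 among VDR targets with RANKL.

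Of the 39 other nuclear receptors, 23 were tested in each table, and 2 rose and 13 fell with RANKL (4 and 13 with GC offsets) while 14 rose and 5 fell with CSRM617 (12 and 4). The thyroid hormone receptors Thra and Thrb fell by 1.74 and 1.82 with RANKL, and Nr3c2, the mineralocorticoid receptor, by 1.24. Hnf4a, a fatty acid binding receptor that maintains enterocyte identity, was 610.8 ± 21.4 CPM in ENR control and 617.7 ± 17.4 CPM with RANKL (0.02, and 0.15 with GC offsets, neither passed), and rose by 0.52 with CSRM617, or by 0.24 with GC offsets. Hnf4g rose by 0.67 with RANKL and 0.11 with CSRM617, or by 0.42 and 0.60 with GC offsets. Esrra, an orphan receptor of mitochondrial genes, fell by 0.27 and rose by 0.83, its fall not passing with GC offsets (-0.20). Nr2f6 and the oxysterol receptor Nr1h2 rose by 0.71 and 0.77 with CSRM617, but with GC offsets Nr2f6 did not pass (-0.03) and Nr1h2 rose by 0.24. Nr3c1, the glucocorticoid receptor, fell by 0.73 with RANKL and was lower with CSRM617 (-0.21), or higher with GC offsets (0.22).

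**Figure D5:**
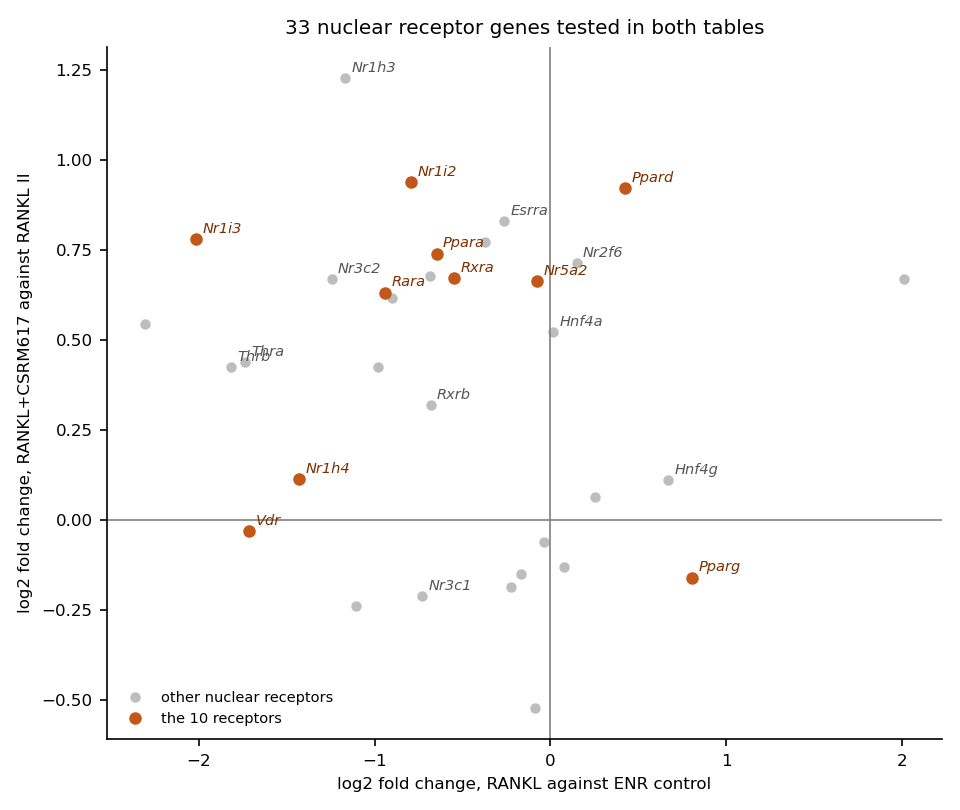
Log2 fold change with RANKL (x axis) against that with CSRM617 (y axis) for the 33 nuclear receptor genes tested in both tables, the 10 receptors in orange and the others in grey. The tables share no library. Nr1i3, Nr1i2, Rara, Ppara and Rxra lie in the upper left, Ppard in the upper right and Pparg in the lower right.

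Over the 12 libraries, with log2 CPM centred within each table, the receptor most like a given one of the 10 was sought among the 32 other receptors tested in both tables, as a description of libraries that share treatment and depth. It was Nr1h3 for Ppara (Pearson r = 0.975), Nr2f6 for Ppard (0.96), Hnf4g for Pparg (0.854), Thra for Nr1h4 (0.957) and for Nr1i3 (0.98), Nr1d1 for Rara (0.985) and Hnf4a for Nr5a2 (0.9). Nr1i2 and Rxra were each the most like the other (0.974).

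Coregulators, the proteins through which bound receptors switch genes on or off, were tested for 19 of 20 genes. With RANKL 3 rose and 7 fell (4 and 9 with GC offsets), and with CSRM617 15 rose and 2 fell (15 and 3). Over all genes 28.7% rose and 28.0% fell with RANKL, and 35.2% and 36.2% with CSRM617. Ncoa4 (1.17) and Ncoa3 (0.67) rose with RANKL, where Ncoa1, a coactivator (-0.58), Gps2, a corepressor subunit (-0.90), and the corepressor Ncor1 (-0.44) fell. With CSRM617 the coactivators Crebbp and Ppargc1b rose by 0.58 and 1.10 (0.38 and 0.66 with GC offsets), and Ncor1 by 0.40, while Tbl1xr1 fell by 0.60, or 0.15 with GC offsets. Ppargc1a was too low to be tested, with 2 to 11 counts per group. Among 21 genes that make or carry receptor ligands, 4 rose and 4 fell of 10 tested with RANKL and 7 rose and 2 fell of 12 with CSRM617. Fabp5, which carries fatty acids and retinoic acid, rose by 2.81 with RANKL, Cyp27a1, a sterol hydroxylase, fell by 1.29, and Fabp2 rose by 1.24 with CSRM617.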

How the data were processed

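Per the labels' protocols, libraries were made from ribosome-depleted total RNA and read as 42-bp pairs. Raw counts per gene symbol were deposited in 2 tables, made with STAR and HTSeq 0.13.5 on mm10 (GRCm38) per the submitters' processing notes, which also name DESeq2 1.34.0. For the STAR version, annotation and strand setting the sources used here give nothing. The authors also deposited normalized values, found to be on a log2 scale, so a planned pseudocount was dropped. They were used only in an alternative.

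Each count table was fitted whole with edgeR 4.0.16 (quasi-likelihood, robust, TMM, filterByExpr) in R 4.3.3. The fit was also run on simulated counts, whose outcome is not given here. Unlike the data, these had the same spread for every gene and no GC trend, so they cannot speak for the results. GC offsets came from a spline with 5 degrees of freedom of log2 CPM against transcript GC in each library. Other settings tried were upper-quartile or RLE factors, DESeq2 1.42.0, other filters, limma 3.58.1, the replicate number as a block, removal of ribosomal and mitochondrial genes, and leaving out each library. Genes named beyond the 10 were the 4 of each list with the smallest p per comparison and a set of standard targets and regulators, some of which are not reported here. The receptors and lists were chosen with earlier results of these data known. Coordinates, exon lengths and GC content are from a GENCODE annotation of GRCm38, and promoters from RefSeq (GRCm38.p6).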

Additional observations from a re-analysis of the deposited data

How the results depend on the processing

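Of 320 fold changes of the 10 receptors under 16 alternatives per comparison, 313 kept their direction and their side of the threshold, 3 no longer passed, 4 newly passed and 0 changed direction. The count of receptors lower with CSRM617, 1 with TMM scaling, was 0 with DESeq2, 2 with GC offsets and 2 with the replicate block and GC offsets together, and 0 to 1 when a library was left out. Pparg lost its call with DESeq2 (-0.15), without RANKL II replicate 2 (-0.14) and without RANKL+CSRM617 replicate 2 (-0.12). Vdr with CSRM617 (-0.26) and Nr5a2 with RANKL (-0.25) gained one with GC offsets, with or without the block. Same-numbered libraries did not deviate together (correlations of 0.0041, 0.0569 and -0.0069 for RANKL, and -0.0111, 0.0127 and 0.0045 for CSRM617), and with the replicate block the receptors gave 2 higher and 7 lower, and 7 higher and 1 lower, as without it. The block moved the calls over all genes from 3897 to 3893 higher and from 3802 to 3808 lower with RANKL. Small target lists moved most: RAR targets lower with RANKL were 1 by TMM scaling and 3 by limma, those higher with CSRM617 were 2 and 1 with GC offsets, FXR targets higher with RANKL were 3 and 1 when at least 10 counts were asked of each library, and LRH-1 targets lower with CSRM617 were 2 and 1 with DESeq2. Other nuclear receptors higher with RANKL were 2 and 1 under that filter and 4 with GC offsets, and those lower with CSRM617 were 5 and 3 with DESeq2. The causes were not tested. Low counts left 16 of the 39 other receptors and 5 of 11 VDR targets untested.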
